A study of Mus musculus with 8 samples.

Results

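The genes described here encode large glycoproteins that cells secrete into the extracellular matrix (ECM) or assemble around themselves. They are the thrombospondins (Thbs1, Thbs2, Thbs3 and Thbs4), the tenascins (Tnc, Tnn, Tnr and Tnxb), fibronectin (Fn1) and periostin (Postn). They were chosen by name, with earlier results of these data known, and all 10 were found among the 43346 gene identifiers counted. Notochord-derived cells (NDCs) of Shh-cre;ROSA:YFP mice were compared at embryonic day 12.5 (E12.5) and at postnatal day 0 (P0), from 4 litters a stage, each litter being pooled into 1 sample. The study names this genotype for the mice of both stages. In it, Cre made from the Shh gene turns on yellow fluorescent protein (YFP) in cells that have expressed Shh and in their descendants. E12.5 samples were intact notochords, freed of other tissue by dissection and not sorted, whereas P0 samples were nucleus pulposus (NP) cells shaken loose from the lumbar and thoracic discs and sorted for YFP. Stage and isolation method changed together and cannot be told apart.

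Thrombospondins are calcium-binding glycoproteins that bridge cells, collagens and growth factors. Thbs1 and Thbs2 form trimers, and Thbs1 is known for releasing transforming growth factor beta from its latent form, whereas Thbs3 and Thbs4 form pentamers found in cartilage, tendon and muscle. Tenascins share a fibrinogen-like end and a run of fibronectin-type repeats. Tnc is typical of condensing mesenchyme and healing tissue, Tnn of periosteum and bone, Tnr of the central nervous system, and Tnxb of loose connective tissue, where it helps to space collagen fibrils. Fibronectin is drawn by integrins into fibrils on which other matrix proteins are laid down, and it is a classical component of the sheath around the notochord. Periostin is a fasciclin-domain protein of periosteum, ligament and valve that assists collagen cross-linking.

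Tnxb, Tnr, Fn1 and Tnc were higher and Postn was lower at P0, and none of the thrombospondins passed the test. Tnxb rose the most, 68.3-fold, followed by Tnr at 16.7-fold, Fn1 at 6.66-fold and Tnc at 2.27-fold, while Postn fell 4.78-fold. Values are given as CPM, the reads of a gene scaled to a common library size, and every fold change is P0 over E12.5 unless stated. Of the 10 genes, 9 had enough reads to be tested in edgeR's quasi-likelihood fit over 15467 genes, and 5 of them passed an adjusted p of 0.05. Over all genes tested, 27.9% passed, with 16% higher and 12% lower at P0, a balance that turned under upper quartile scaling (2105 genes higher and 2322 lower). The median log2 fold change was 0.98 over the 9 genes and 0.04 over all genes tested. In 4 of the 9 genes the litters of the stages did not overlap, 3 of them with P0 above and 1 with P0 below, against 29.9% of all genes tested (15.5% above and 14.4% below). The RNA came from bulk samples, in which fewer cells of a type and less RNA per cell cannot be told apart.

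**Figure D1:**
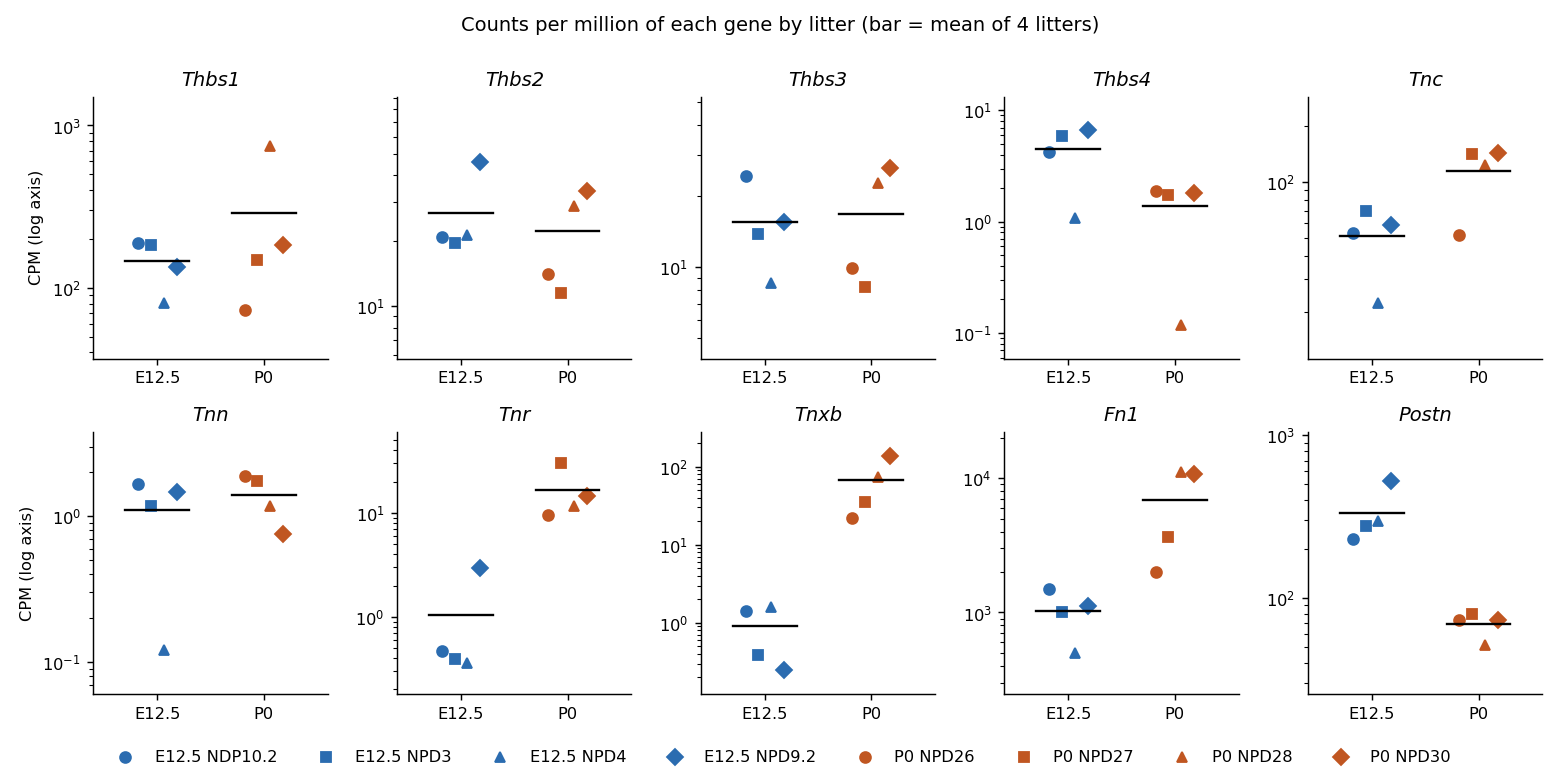
CPM of the 10 genes (log axis, 1 panel a gene) in the 4 E12.5 (blue) and 4 P0 (orange) litters, with a bar at the mean of each stage. The stages separate fully in Tnr, Tnxb, Fn1 and Postn and overlap in the other panels, and 1 P0 litter stands far above the rest in Thbs1, at 752 CPM.

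Reads counted on genes ranged from 4442775 to 7180221 among E12.5 libraries and from 6371842 to 8904050 among P0 libraries, so that 3 reads equalled 0.337 to 0.675 CPM. Reads that fell on overlapping genes were set aside by the counting, and for every 100 reads counted they numbered 72 in NDP10.2 and 71.2 in NPD9.2 but 22.7 to 35.7 in the other litters. Brachyury (T), the defining notochord factor, had a mean of 584 CPM before birth and of 1319 CPM after it. Its litters overlapped between stages and it did not pass the test (log2 change 1.18, adjusted p = 0.117). Noto was nearly absent from both stages, at 0.0488 and 0.187 CPM. RNA of other cells was present. Summed over 8 leukocyte genes, the E12.5 litters had 53.7 to 107 CPM and the P0 litters 281 to 3367, and summed over 6 macrophage genes 48.8 to 98.6 against 55.3 to 4409. For 6 osteoblast genes it was 30.0 to 88.2 against 334 to 702, for 6 tendon and annulus genes 82.5 to 367 against 673 to 1563, and for 7 platelet genes 28.1 to 102 against 64.7 to 375. The sums were higher at E12.5 for 7 sclerotome genes (132 to 187 against 7.77 to 21.8), 6 skeletal muscle genes (135 to 732 against 20.6 to 108) and 3 primitive globin genes (8120 to 32815 against 2.12 to 7.07). They overlapped for 7 neural genes (82.7 to 1585 against 299.6 to 823), 5 Schwann and neural crest genes (277 to 529 against 23.4 to 643), 6 endothelial genes (74.4 to 154 against 24.6 to 118) and 8 notochord genes (985 to 3326 against 1014 to 4082). The macrophage and platelet sums given above overlapped as well. Of the single markers, 8 of 8 leukocyte, 6 of 6 macrophage, 4 of 6 osteoblast and 2 of 7 platelet genes passed as higher at P0, and 7 of 7 sclerotome, 4 of 6 muscle, 3 of 3 globin, 4 of 5 Schwann, 1 of 7 neural and 1 of 6 endothelial genes as lower. Of the tendon and annulus genes 1 was higher and 1 lower, and of the notochord genes 1 was higher and 2 were lower. The markers Noto, Gp6, Bglap, Tnmd, Kera, Olig2, Nkx2-2 and Ckm had too few reads to be tested and so could not pass. No marker in these lists was at 0 in all litters of a stage. The part of these cells in the results was not tested, and their values are given beside some results as measurements only.

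Promoter sequences are shown for the called genes that the RefSeq promoter table holds (GRCm38.p6), so that the genes that rose can be set beside Postn, which fell. The table matched 8 of the 10 genes, all but Thbs1 and Fn1. Each sequence is the 250 bases before the annotated start, 5′ to 3′ on the gene's strand, with matches to any of 5 searched motifs in capitals. For Tnc and Postn, which have a pair of starts each, the one nearest to the Gencode gene start is shown.
Tnxb, chr17:34670285-34670534, strand +: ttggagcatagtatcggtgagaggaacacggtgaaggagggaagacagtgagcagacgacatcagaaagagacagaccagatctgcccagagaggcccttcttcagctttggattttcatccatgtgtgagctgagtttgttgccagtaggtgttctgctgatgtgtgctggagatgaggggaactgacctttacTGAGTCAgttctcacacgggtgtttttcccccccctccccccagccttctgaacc
Tnr, chr1:159523519-159523768, strand +: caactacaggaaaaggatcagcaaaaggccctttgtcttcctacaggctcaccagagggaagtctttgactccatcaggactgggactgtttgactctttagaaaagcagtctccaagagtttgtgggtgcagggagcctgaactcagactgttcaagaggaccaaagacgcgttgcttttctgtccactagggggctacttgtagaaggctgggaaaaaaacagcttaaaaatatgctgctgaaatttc
Tnc, chr4:64047016-64047265, strand -: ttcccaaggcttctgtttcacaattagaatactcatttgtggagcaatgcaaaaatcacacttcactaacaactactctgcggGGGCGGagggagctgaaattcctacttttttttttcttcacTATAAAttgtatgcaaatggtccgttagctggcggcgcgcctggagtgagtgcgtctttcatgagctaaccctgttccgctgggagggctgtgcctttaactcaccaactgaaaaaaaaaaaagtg
Postn, chr3:54360857-54361106, strand +: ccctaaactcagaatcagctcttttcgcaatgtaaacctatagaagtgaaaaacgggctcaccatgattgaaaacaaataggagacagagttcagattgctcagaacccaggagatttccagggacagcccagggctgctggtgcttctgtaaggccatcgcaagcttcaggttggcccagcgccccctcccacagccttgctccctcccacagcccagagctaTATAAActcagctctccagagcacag
Each motif was searched for on both strands. The letters were TATAAA for the core promoter element of that name (the TATA box). For the transcription factor AP-1 they were TGANTCA. The CCAAT box was searched for by its own letters. For the element bound by Sp1 (the GC box) they were GGGCGG. The letters for the TEAD factors, which act in the Hippo pathway, were CATTCC. Postn had the TATAAA letters starting 26 bases before its start. Tnc had them farther off, at 126 bases, and a GC box at 167 bases, and Tnxb had an AP-1 match at 55 bases. Counted from the other Tnc start, the same Tnc matches lay at 205 and 246 bases. Exact letters were searched for, so variants of an element were not found. The Tnr sequence and the other Postn start held none of the 5. Of the 32851 promoters in the table, 12.4% held the TATAAA letters, 6.75% the AP-1 letters, 33.8% the CCAAT box, 32.7% the GC box and 12.6% the TEAD letters. The matches are descriptions of the letters and not of binding.

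Fn1 (ENSMUSG00000026193.11, chromosome 1 from 71585520 to 71653200, GRCm38 throughout) was the most abundant of the 10 genes at both stages. Its abundance was 1496 CPM in NDP10.2, 1013 in NPD3, 495 in NPD4 and 1110 in NPD9.2 at E12.5. At P0 it was 2015 CPM in NPD26, 3647 in NPD27, 11033 in NPD28 and 10699 in NPD30, and values below follow these orders. Every P0 litter lay above every E12.5 litter, though the lowest P0 value was only 1.35-fold above the highest E12.5 value. The means were 1028 ± 412 and 6848 ± 4689 CPM (SD, n = 4 litters each), a log2 change of 2.74 with a standard error (SE) of 0.59 (adjusted p = 0.00607). Fn1 alone took 0.057% to 0.14% of all counted reads at E12.5 and 0.201% to 1.07% at P0. The P0 litters differed 5.48-fold from lowest to highest, against a median of 2.07-fold over all genes tested. The macrophage sum in the same P0 litters was 4023, 4409, 1368 and 55.3 CPM, so that the litter NPD30 had a sum within the E12.5 range together with a Fn1 value near the top. The tendon and annulus sums were 716, 673, 1139 and 1563 CPM and the osteoblast sums 334, 531, 405 and 702 CPM in these litters. Their notochord sums were 1893, 1014, 2221 and 4082 CPM. Most of the tendon and annulus sum was 1 gene, Fmod, at 456, 403, 1029 and 1415 CPM, while Scx, the tendon transcription factor of that list, was lower at P0 (log2 change -1.31, adjusted p = 0.0186) and Tnmd and Kera reached at most 2.43 and 2.16 CPM in any litter. Most of each osteoblast sum was Ibsp, at 245.5, 388.9, 262 and 525.6 CPM. Of the 6 osteoblast genes 4 passed as higher at P0, and Runx2 did not pass (log2 change -0.4, adjusted p = 0.438). The part of these cells in the Fn1 values was not tested. With the E12.5 litters NDP10.2 and NPD9.2 both left out, the log2 change of Fn1 was 3.15 and its adjusted p 0.0515.

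Among the tenascins, Tnxb (ENSMUSG00000033327.12, chromosome 17 from 34670535 to 34719815) was close to absent at E12.5. Its E12.5 counts were 6, 2, 13 and 1 reads, or 1.42, 0.390, 1.57 and 0.246 CPM, and 2 of the 4 litters lay below the level of 3 reads. At P0 it reached 22.2, 35.0, 73.1 and 138 CPM, or 141 to 912 reads. All P0 litters were high, and the lowest of them was 14.1-fold above the highest E12.5 litter. The means were 0.906 ± 0.684 and 67.2 ± 52.1 CPM (SD, n = 4 litters each), a log2 change of 6.09 with an SE of 0.74 (adjusted p = 0.000482), a larger change than that of 98.8% of the genes tested. The size rests on 22 reads over the E12.5 litters and is therefore imprecise. Dropping any single litter gave log2 changes between 5.43 and 6.59, and all 8 fits passed. The highest value was in NPD30, the P0 litter with the lowest leukocyte and macrophage sums, at 281 and 55.3 CPM. Among P0 litters NPD30 also had the highest osteoblast sum (702 CPM), notochord sum (4082 CPM) and tendon and annulus sum (1563 CPM). The part of these cells in the Tnxb values was not tested.

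Tnr (ENSMUSG00000015829.9, chromosome 1 from 159523769 to 159931729) was also near the detection level at E12.5, with 2, 2, 3 and 12 reads, or 0.472, 0.390, 0.363 and 2.95 CPM. It was 9.59, 30.0, 11.7 and 14.6 CPM at P0. The E12.5 litter NPD9.2 stood above the other E12.5 litters, yet the lowest P0 litter was still 3.25-fold higher. The means were 1.04 ± 1.27 and 16.5 ± 9.26 CPM (SD, n = 4 litters each), a log2 change of 4.06 with an SE of 0.71 (adjusted p = 0.00224). Dropping any single litter kept the call, with log2 changes between 3.59 and 5.26 in those 8 fits. Since Tnr is a gene of neural tissue, the neural sums are given beside it. At E12.5 they were 125, 82.7, 1585 and 135 CPM and at P0 823, 496, 299.6 and 572 CPM. Apart from the E12.5 litter NPD4, which had the highest neural sum and 3 reads of Tnr, all P0 litters exceeded the E12.5 litters in their neural sum. Most of each P0 sum was 1 gene, Stmn2, at 536, 336, 185 and 349 CPM, which did not pass (log2 change 0.84, adjusted p = 0.571). None of the 7 neural genes passed as higher at P0, and Sox2 was lower (log2 change -3, adjusted p = 0.013). Olig2 and Nkx2-2 of that list had too few reads to be tested. Summed over litters, Olig2 had 3 reads at E12.5 and 53 at P0, and Nkx2-2 had 25 and 23. Macrophage sums at P0 were 4023, 4409, 1368 and 55.3 CPM, and Schwann sums 491, 643, 23.4 and 59.4 CPM. The highest Tnr value was in NPD27, with the highest of both sums. The lowest P0 value was in NPD26, whose sums were the next highest among P0 litters. Without NPD26 and NPD27 the log2 change was 3.73 (adjusted p = 0.0132). The part of neural, glial and macrophage RNA in the Tnr values was not tested.

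Tnc (ENSMUSG00000028364.11, chromosome 4 from 63959785 to 64047015) was the most abundant tenascin at both stages. It was 53.1, 69.7, 22.4 and 58.5 CPM at E12.5 and 51.6, 142, 123 and 144 CPM at P0. In NPD26 it lay within the E12.5 range, and the other P0 litters lay above it. The means were 50.9 ± 20.2 and 115 ± 43.4 CPM (SD, n = 4 litters each), a log2 change of 1.18 with an SE of 0.40 (adjusted p = 0.0473). This call was marginal. Of the 8 fits with a single litter dropped, only the one without NPD26 passed (log2 change 1.43, adjusted p = 0.0158), and without NDP10.2, NPD3, NPD4, NPD9.2, NPD27, NPD28 or NPD30 the adjusted p rose as far as 0.106, with log2 changes between 0.92 and 1.33. Tnn (ENSMUSG00000026725.13, chromosome 1 from 160085029 to 160153580) was below the filter on low counts, with 1 to 7 reads in an E12.5 litter and 5 to 12 in a P0 litter, and means of 1.11 ± 0.685 and 1.39 ± 0.519 CPM. In a fit of all 32299 genes with a read, without that filter, its log2 change was 0.37 with an SE of 0.98 (adjusted p = 0.818).

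The makeup of the tenascin family changed with these differences. Levels per kb of exon allow for unlike gene lengths. The length used joins all annotated exons of a gene and can exceed that of its transcripts, so shares and orders between genes depend on it. On this scale Tnc made up 93.7% to 97.1% of the summed level of the 4 tenascins at E12.5 and 59.6% to 76.9% at P0. The Tnxb share grew from between 0.251% and 4.21% to between 12.1% and 36.4%, and the Tnr share from between 0.329% and 2.85% to between 3.63% and 9.81%. The ranges of the stages did not overlap for Tnc, Tnxb or Tnr. The summed level of the tenascins was 6.9 ± 2.68 CPM per kb at E12.5 and 21.8 ± 8.99 CPM per kb at P0 (SD, n = 4 litters each), and its litters ranged from 3.06 to 9.23 at E12.5 and from 9.52 to 31.1 at P0. In the thrombospondin family Thbs1 remained the main gene, with between 65.3% and 80.2% of the summed level in the E12.5 litters and between 72.2% and 93.3% in the P0 litters.

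**Figure D2:**
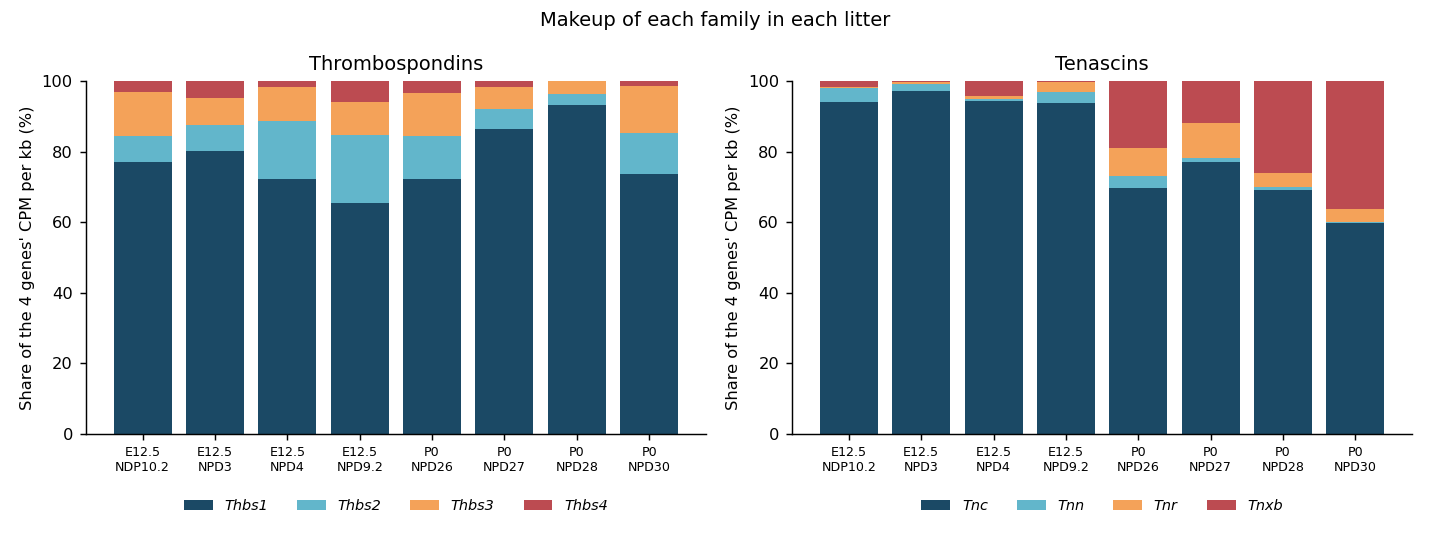
Share of each gene in the summed CPM per kb of exon of its family (percent, stacked bars from 0 to 100), 1 bar a litter, for the 4 thrombospondins (left) and the 4 tenascins (right). Tnxb and Tnr take up a visible part of the tenascin bars at P0, where the Tnc share is 59.6% to 76.9%, and Thbs1 holds most of every thrombospondin bar.

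Postn (ENSMUSG00000027750.12, chromosome 3 from 54361109 to 54391037) was the only gene of the 10 that passed the test as lower at P0. It was 229, 278, 297 and 524 CPM at E12.5 and 73.1, 79.9, 51.3 and 73.5 CPM at P0. Every E12.5 litter was at least 2.87-fold above every P0 litter, and the P0 litters lay within 1.56-fold of each other, closer than the median gene at 2.07-fold. The means were 332 ± 131 and 69.5 ± 12.5 CPM (SD, n = 4 litters each), a log2 change of -2.26 with an SE of 0.30 (adjusted p = 0.000592). The call held when any single litter was dropped, with log2 changes between -2.44 and -1.98 in those 8 fits. The sclerotome genes, markers of the tissue next to the notochord, were higher at E12.5 as well, and the 7 of them had sums of 176, 173, 132 and 187 CPM at E12.5 and 18.6, 21.8, 7.77 and 17.3 CPM at P0. Both were lower at P0 in every litter, and the part of sclerotome RNA in the Postn values was not tested.

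**Figure D3:**
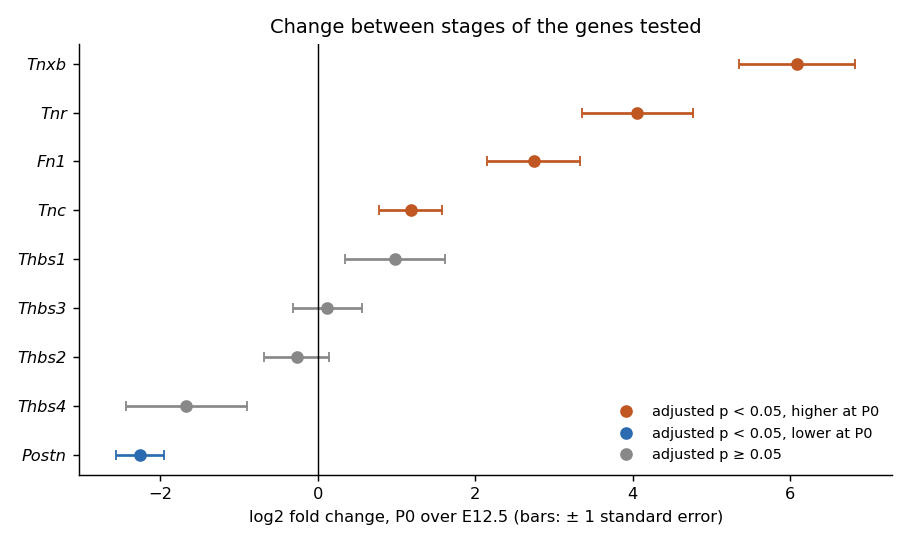
Log2 fold change (P0 over E12.5) of the 9 genes tested, with bars of 1 standard error. Orange and blue points passed an adjusted p of 0.05 as higher and lower at P0, and grey points did not. Tnxb lies farthest to the right at 6.09 and Postn farthest to the left at -2.26, with the 4 thrombospondins in grey.

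No thrombospondin passed the test. Thbs1 (ENSMUSG00000040152.8, chromosome 2 from 118111876 to 118127133) was 189, 183, 81.0 and 134 CPM at E12.5 and 73.4, 149, 752 and 183 CPM at P0. The stages overlapped, and the P0 litter NPD28 lay far above the rest. The means were 147 ± 50.3 and 289 ± 312 CPM (SD, n = 4 litters each), a log2 change of 0.98 with an SE of 0.64 (adjusted p = 0.287). Without NPD28 the log2 change was -0.11 (adjusted p = 0.858), so the direction rested on that litter. Platelets store much Thbs1, and the platelet sums at P0 were 244, 375, 64.7 and 102 CPM, of which Pf4 alone gave 197.5, 282.5, 38.96 and 14.9 CPM. The part of platelet RNA in the Thbs1 values was not tested.

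Thbs2 (ENSMUSG00000023885.8, chromosome 17 from 14665500 to 14694235) was 20.8, 19.5, 21.2 and 45.7 CPM at E12.5 and 14.2, 11.5, 28.96 and 34.0 CPM at P0. Its log2 change of -0.27 with an SE of 0.41 (adjusted p = 0.669) was within the spread of the litters and turned to 0.08 without the E12.5 litter NPD9.2, which had more than the others. Thbs3 (ENSMUSG00000028047.7, chromosome 3 from 89215180 to 89226837) was 24.3, 13.9, 8.58 and 15.5 CPM at E12.5 and 9.91, 8.22, 22.7 and 26.4 CPM at P0, with a log2 change of 0.12 with an SE of 0.44 (adjusted p = 0.871) that changed sign with the scaling and with the litters left out. Thbs4 (ENSMUSG00000021702.7, chromosome 13 from 92751590 to 92794818) was the scarcest thrombospondin, with 9 to 30 reads in an E12.5 litter and 1 to 12 in a P0 litter. Its means were 4.46 ± 2.46 and 1.39 ± 0.85 CPM (SD, n = 4 litters each) and its log2 change was -1.67 with an SE of 0.77 (adjusted p = 0.13). The E12.5 litter NPD4, at 1.09 CPM, lay below 3 of the 4 P0 litters.

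**Figure D4:**
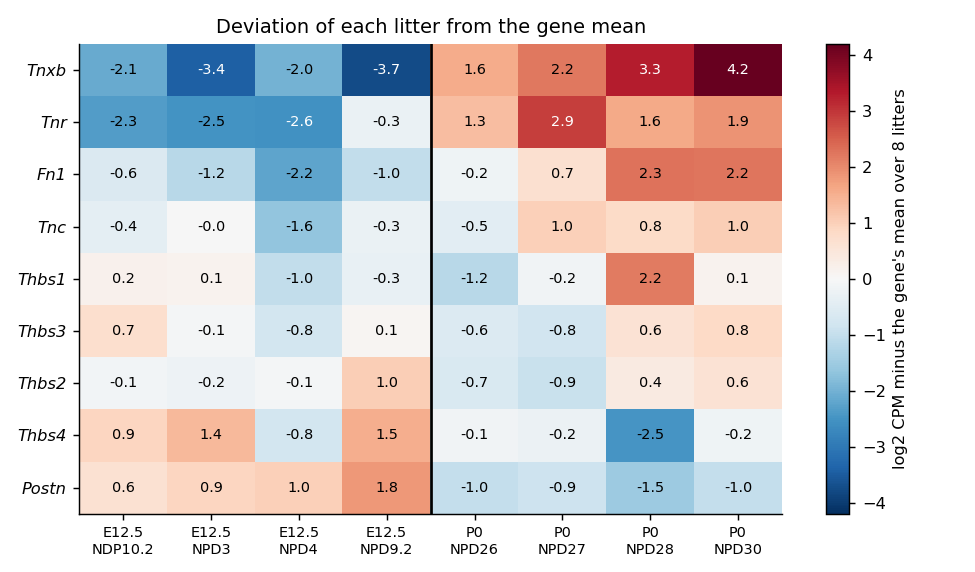
Log2 CPM of each tested gene minus its mean over the 8 litters, as colors and printed values, with genes in rows ordered by fold change and a line between the 4 E12.5 (left) and 4 P0 (right) litters. Tnxb runs from negative to positive across the line, Postn the other way, and Thbs1 is high in the P0 litter NPD28 alone.

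Compared per kb of exon, Fn1 was first at both stages, at 88.0 ± 35.3 CPM per kb at E12.5 and 586 ± 401 at P0 (SD, n = 4 litters each). At E12.5 the order after it was Postn (38.2), Thbs1 (24.2), Tnc (6.55), Thbs2 (3.83), Thbs3 (3.23), Thbs4 (1.36), Tnn (0.19), Tnr (0.0811) and Tnxb (0.0742). Neighbours in this order overlapped between litters except Thbs1 against Tnc and Thbs4 against Tnn. At P0 the order after Fn1 was Thbs1 (47.7), Tnc (14.8), Postn (7.98), Tnxb (5.5), Thbs3 (3.49), Thbs2 (3.16), Tnr (1.28), Thbs4 (0.422) and Tnn (0.239), and only Fn1 against Thbs1 and Tnr against Thbs4 did not overlap. With these exon lengths, Postn moved from the second place to the fourth and Tnxb from the last to the fifth. Other choices of length could change these places. Averaged over litters, Fn1 made up 51.8% of the summed level of the 10 genes at E12.5 and 86.0% at P0, and Postn 24.4% and 1.97%.

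**Figure D5:**
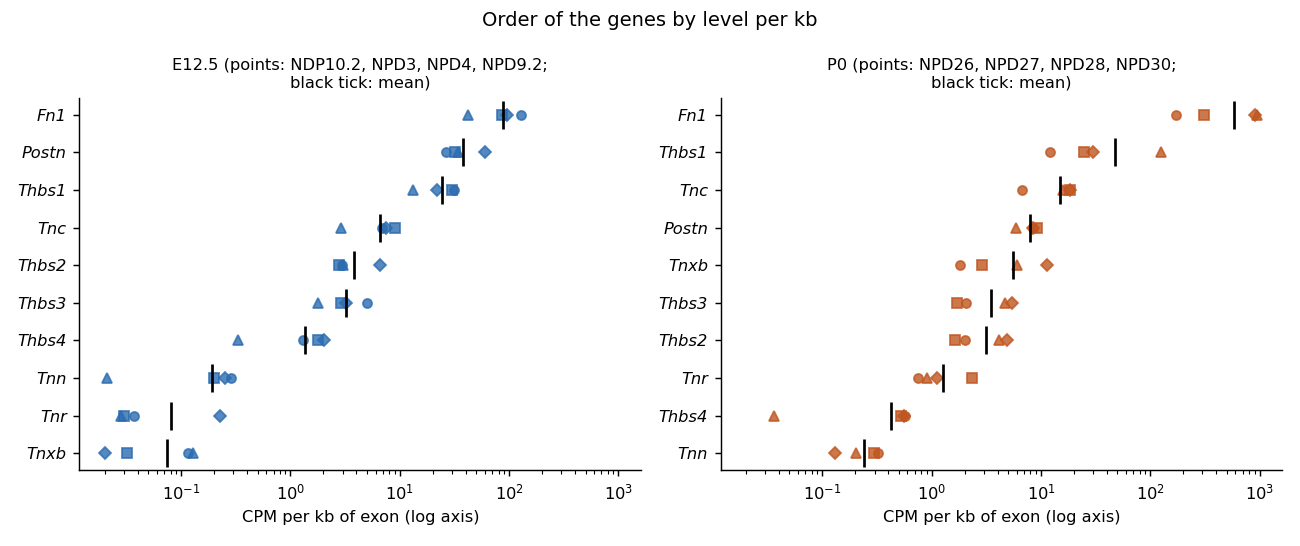
CPM per kb of exon (log axis) of the 10 genes at E12.5 (left) and P0 (right), ordered by the mean, which a black tick marks. Points are litters, in the order circle, square, triangle and diamond of the names above each panel. Fn1 leads both panels, Postn drops from the second row to the fourth, and Tnxb climbs from the last row to the fifth.

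The proteins these genes encode act through receptors, and 18 genes for integrins and other known binding partners were examined as a list. All 18 were tested and 6 passed, 4 higher and 2 lower at P0, or 33.3% against 27.9% of all genes, with a median log2 fold change of 0.38. Itga5, the alpha subunit of the main fibronectin receptor, was 46.7 ± 15.3 CPM at E12.5 and 116 ± 45.7 at P0 (log2 change 1.31, adjusted p = 0.0147), with P0 litter NPD27 inside the E12.5 range. Its beta partner Itgb1 was 287.5 ± 19.2 and 371 ± 37.5 CPM and did not pass (log2 change 0.37, adjusted p = 0.224). Sdc4, a syndecan that binds fibronectin's heparin-binding region, rose from 35.1 ± 16.3 to 137 ± 36.5 CPM (log2 change 1.96, adjusted p = 0.00385). Cd47, a receptor for Thbs1, rose from 72.6 ± 5.79 to 260 ± 69.0 CPM (log2 change 1.84, adjusted p = 0.000645), and Itgb5, whose product pairs with alpha v and binds periostin, from 38.4 ± 10.3 to 114.5 ± 39.2 CPM (log2 change 1.58, adjusted p = 0.00395). Itga8 and Itgb8, integrin subunits that bind tenascin C or latent transforming growth factor beta, fell by 2.39 and fell by 1.99 in log2 units (adjusted p = 0.012 and 0.0161). Cd36, the other classical Thbs1 receptor, was 126 ± 75.0 and 216 ± 57.3 CPM (adjusted p = 0.196).

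A second list held 13 other secreted glycoproteins of the matrix, of which 7 passed, 3 higher and 4 lower at P0, or 53.8% against 27.9% of all genes, with a median log2 fold change of -0.20. Spp1, the bone and cartilage protein osteopontin, rose from 134 ± 90.8 to 850 ± 239.8 CPM (log2 change 2.66, adjusted p = 0.00556), the log2 change of Sparcl1, a relative of the matricellular protein SPARC, was 1.6 (adjusted p = 0.00844) and that of Ecm1 was 1.46 (adjusted p = 0.036). Smoc2 and Spon1 fell by 3.69 and fell by 3.68 in log2 units (adjusted p = 0.00012 and 5.45e-05), and the fibulins Fbln1 and Fbln2 fell by 2.67 and fell by 2.06 (adjusted p = 0.000148 and 0.00312). Of the relatives of the main genes in this list, the following did not pass. Comp, the fifth thrombospondin, was 3.45 ± 3.36 CPM at E12.5 and 3.02 ± 1.61 at P0 (adjusted p = 0.866), and Tgfbi, a fasciclin-domain protein related to periostin, was 71.9 ± 14.9 and 93.6 ± 28.95 CPM (adjusted p = 0.356).

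The genes whose profile over the 8 litters was most like that of a called gene were found by the root mean square difference of their centred log2 CPM, among 12687 genes. Postn was nearest to Creb5 (0.17), Kank4 (0.20) and Pdzrn3 (0.29). Fn1 was nearest to Eps8l2 (0.26), Fmod (0.40), the collagen-binding proteoglycan fibromodulin and one of the tendon and annulus markers, and Syne1 (0.42). The study itself reported Fmod among the proteoglycan genes of NDCs that were higher at P0. Tnc was nearest to Abcg4 (0.33), Parp4 (0.34) and Cpox (0.36), Tnr to C2 (0.58), F13a1 (0.58) and Tmem151a (0.60), and Tnxb to Car1 (0.68), Acpp (0.83) and Ttc9 (0.86). C2 is a gene of complement and F13a1 of a clotting factor. The distances run over all 8 litters, so a difference between the stages that genes share enters them. A shared cell source was not tested.

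Some exons of these genes overlap those of other genes on the opposite strand, and whether the counting used strand is not given in the sources used here. The overlap in Gencode M21 was 6.59% of exon bases for Thbs3, with Mtx1, 3.42% for Thbs1 and 3.44% for Tnr, each with a noncoding gene, 2.5% for Fn1 and 2.26% for Tnc. Reads in those bases may have been lost or shared, and values of these genes are to that extent uncertain.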

How the data were processed

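Each sample was a pool of the embryos or pups of 1 litter. RNA was prepared with TRIzol and made into libraries with the TotalScript kit. According to the methods and the submitters' processing notes, reads were aligned with STAR 2.4.0j to GRCm38.p3 and counted on Gencode M4 genes with htseq-count. The authors deposited raw counts per gene, 1 file a sample, without normalization. The 5 rows of reads assigned to no gene were left out. Symbols were found for 42462 of the 43346 identifiers, and Gencode M21, a later annotation of this build, gave positions and exon lengths. Stages were taken from the labelled age.

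Genes past filterByExpr (minimum count 10, minimum total 15) entered edgeR 4.0.16 under R 4.3.3, with TMM scaling, robust dispersions and the quasi-likelihood F-test, two-sided, with Benjamini-Hochberg adjustment over all 15467 genes. This tool was used in place of the DESeq2 test of the study. Calls needed an adjusted p below 0.05, and SEs are log2 changes over the square root of F. TMM library sizes entered CPM, and 2 was the prior count in log2 CPM. Simulated data served to check the procedure. The level of 3 reads covers counting error only. The alternatives used DESeq2 1.42.0, limma 3.58.1 (voom), other scalings and filters, a test against a fold change of 2, and left-out litters. Leaving out the P0 litters NPD26 and NPD27 was chosen after the data were seen.

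The genes, lists and tests were chosen with earlier results of these data known. Named were all 10 genes, from each of the 2 companion lists up to 4 higher and 4 lower with the largest change among those called, and the 3 genes most like each called gene with a mean log2 CPM of at least 2. Itgb1, Cd36, Comp, Tgfbi and single markers were named in addition, after their values were seen. Stage and isolation were confounded, and immunohistochemistry was not analysed here.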

Additional observations from a re-analysis of the deposited data

Results flagged for a closer look

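In 4 of the 20 sets of 4 litters (10 genes at 2 stages), 1 litter lay far from the others by Dixon's ratio, above the 95% critical value of 0.829. Chance gives about 1 such set in 20. Thbs1 was 752 CPM in the P0 litter NPD28 against 73.4 to 183 in the other P0 litters (ratio 0.839). In the same litter Thbs4 was lowest, at 0.118 CPM from 1 read, against 1.73 to 1.89 CPM (ratio 0.911). Thbs2 was 45.7 CPM in the E12.5 litter NPD9.2 against 19.5 to 21.2 (ratio 0.937), and Tnr was 2.95 CPM there, from 12 reads, against 0.363 to 0.472 (ratio 0.958). The CPM of Thbs4 and Tnr rest on few reads, and the cause of these values was not tested.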

How the results depend on the processing

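Tnxb, Tnr and Postn kept their direction and their call under all 9 alternatives and in all 8 fits without 1 litter. Fn1 did so except without the E12.5 litters NDP10.2 and NPD9.2, where its adjusted p was 0.0515. Tnc passed under 4 of the 9 alternatives, not with limma-voom (adjusted p = 0.0547), DESeq2 size factors (0.0513), upper quartile scaling (0.0751), the test against a fold change of 2 (0.522) or without both those E12.5 litters (0.169). The number of the 10 genes called was 3 without NDP10.2 and NPD9.2, a fit with fewer litters, and 4 to 5 in the fits without 1 litter. Over all genes the calls fell from 4321 to 1928 against a fold change of 2, to 2581 without NDP10.2 and NPD9.2, and to 2875 without NPD26 and NPD27. The binding partners called fell from 6 to 2 against a fold change of 2. Upper quartile scaling shifted the median log2 fold change of all genes by -0.15, turned Thbs3 to -0.03 and gave 2105 genes higher and 2322 lower at P0, or 47.5% of calls higher against 57.1%. Thbs2 turned to 0.09 without NDP10.2 and NPD9.2 and to 0.26 without NPD26 and NPD27. In the fits without 1 litter the log2 fold change ranged from -0.11 to 1.31 for Thbs1, from -0.59 to 0.08 for Thbs2 and from -0.22 to 0.37 for Thbs3. None of the thrombospondins passed under any of these settings. The causes were not tested. No paired analysis was possible because the litters of the stages share no number or animal in the labels. Depth limits Tnxb, Tnr, Tnn and Thbs4, which had 30 reads or fewer in each E12.5 litter.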
